A study of Homo sapiens with 5 samples.

Results

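The integrin subunits and the adaptor proteins of focal adhesions were examined as a set of 39 genes, 21 for integrin subunits and 18 for adaptors, in the transcriptomes of gefitinib-resistant and parental HCC827 cells. Members were taken by gene symbol from the table of FPKM values (fragments per kilobase of transcript, scaled to the library's mapped fragments), using for each symbol the entry with the highest mean. Of the 39 genes, 35 were found by symbol among 37181 entries. The symbols ITGB3, ITGB6 and PARVB stood only inside entries that the assembly joined with a neighbouring gene, and ITGA8 was not analysed here. The 24 members whose mean level reached 0.5 FPKM across the 5 libraries, 10 integrin subunits and 14 adaptors, were tested.

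HCC827 is a lung adenocarcinoma cell line that carries an activating exon 19 deletion of EGFR, the target of the tyrosine kinase inhibitor gefitinib. HCC827/GR is its resistant derivative, obtained by raising the gefitinib dose stepwise over more than 6 months, and it carries the same deletion. The comparison holds 3 libraries of HCC827/GR (replicates 1, 2 and 3) and 2 of parental HCC827 (replicates 2 and 3, HCC827/GS in the labels). It asks how the genes of cell-matrix adhesion differed between resistant and parental cells. HCC827/GR is 1 selected line, and nothing in the labels says that replicates came from separate cultures, so that p-values measure only the spread between these libraries, which may be technical.

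Integrins are receptors made of an alpha and a beta subunit that bind matrix proteins or other cells, and the pairing of subunits sets which ligand is bound. Talins and kindlins bind the tail of the beta subunit and switch the receptor to its active state. Vinculin, the ILK complex, paxillin, zyxin and most tensins tie the receptor to actin. Focal adhesion kinase and its relative PYK2 carry the signal on to SRC family kinases. In lung epithelium, integrins hold cells to laminin and collagen, and alphaV integrins release active TGF-beta.

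Sums of FPKM ran from 138854 to 167722 per library, and 8896 to 9803 entries stood at 0. The number of reads behind the values is unknown. Pearson correlations of log2(FPKM + 1) were 0.913 to 0.927 within a group and 0.851 to 0.873 between groups. The label was checked against marker genes. The summed level of the 5 epithelial markers listed was 443 to 573 FPKM in HCC827/GR and 1063 to 1182 FPKM in HCC827. All 5 were lower in HCC827/GR. The sum of 3 lung lineage markers was 0.444 to 1.04 FPKM in HCC827/GR and 4.12 to 4.75 FPKM in HCC827. In every library it came mostly from an NKX2-1 entry that also holds SFTA3. SFTPB, also lower in HCC827/GR, was at most 0.139 FPKM, and SFTPC was at most 0.0197 FPKM with overlapping groups. Leukocyte markers summed to 0.128 to 0.334 FPKM in HCC827/GR and 1.33 to 1.45 FPKM in HCC827, fibroblast markers to 0.807 to 1.17 and 0.792 to 1.03 FPKM, and endothelial markers to 0.0672 to 0.108 and 3.38 to 4.44 FPKM. The endothelial sum of HCC827 came mostly from a PECAM1 entry with no annotated transcript that was listed at 0 in HCC827/GR. Of 4 endothelial markers, 2 were lower in HCC827/GR, 1 (KDR) was higher and 1 overlapped. Of 6 fibroblast markers, 2 were lower, 1 (PDGFRB) was higher and 3 overlapped. The part of these marker differences in the results that follow was not tested, and in bulk RNA fewer cells of a type and less RNA per cell cannot be told apart.

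Of the 24 members tested, 4 were higher in HCC827/GR (ITGB8, TLN1, TLN2 and ZYX), 4 were lower (ITGA2, FERMT1, PTK2B and PXN), and 16 did not pass. The test was limma on log2(FPKM + 1) across all 16189 entries over the filter, with a Benjamini-Hochberg adjusted p under 0.05 as the call. Over all entries tested, 5.26% were called higher and 5.71% lower, 11.0% in all, against 33.3% of the members. The members were chosen with earlier results of these data known, so these shares describe the set and do not test it. The integrin subunits supplied 2 of 10 and the adaptors 6 of 14. The median log2 difference, HCC827/GR minus HCC827, was 0.20 over the 24 members and 0.00143 over all entries. By the thresholds of the study, which are a change of 2-fold up or down to 0.5 (here on the log2(FPKM + 1) scale) with an unadjusted p under 0.05, ITGB8 and TLN2 were higher and ITGA2, FERMT1 and PTK2B lower, against 2.96% and 3.97% of all entries. With the fold taken as the ratio of mean FPKM, ITGB2 was lower as well, at a ratio of 0.415. The groups did not overlap for 13 members that were higher in HCC827/GR and 5 that were lower, which 22.8% and 23.4% of all entries also showed, 46.3% in all.

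The number of libraries limits these calls. Leaving out a library in turn, TLN2, ITGA2 and PTK2B kept an adjusted p under 0.05 each time, whereas ITGB8, TLN1, ZYX, FERMT1 and PXN lost it in at least 1 case each, as given beside their values. With a re-implementation of Ballgown's linear model in place of limma, 0 of 24 members passed, where 6 entries of all 16189 were called higher and 9 lower. By its unadjusted p, 9 of the 24 members were under 0.05. The share of all entries under that unadjusted p was not counted, so this number has no background. The re-implementation gave PTK2B a log2 difference of -1.34, with an unadjusted p of 0.00164 and an adjusted p of 0.135. The paper ran Ballgown itself and listed PTK2B, as lower, among its top differently expressed mRNAs, with a q value given as 0.05. It selected these by fold change and unadjusted p, thresholds that PTK2B also passed in the re-implementation. Why the adjusted values differ was not tested.

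**Figure D1:**
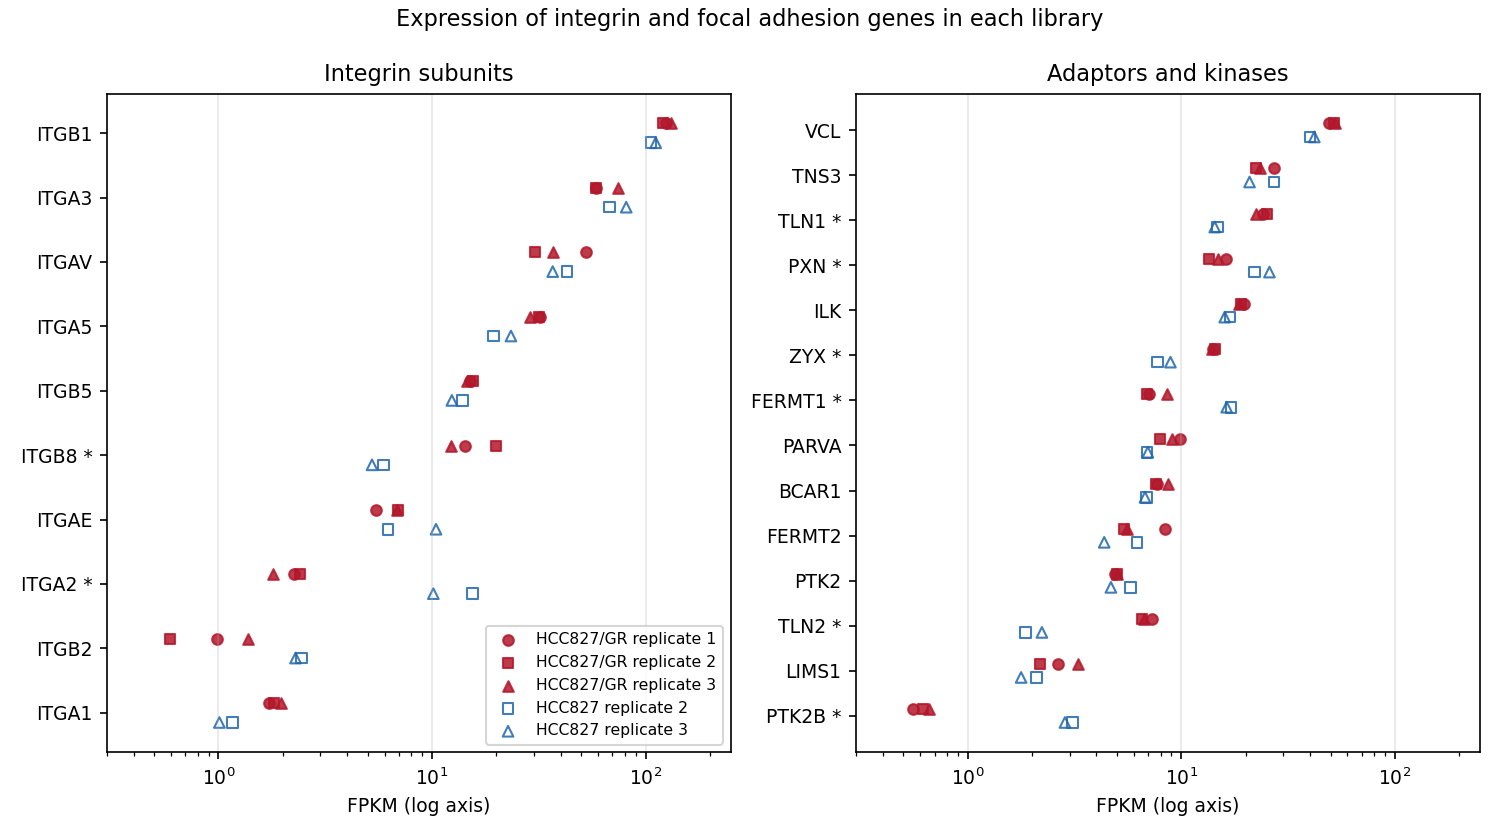
FPKM on a log axis for members in each library, filled symbols for HCC827/GR (n = 3), open ones for HCC827 (n = 2), a shape for each replicate number and an asterisk for members called by limma. ITGA2 stood at 1.79 to 2.42 FPKM in HCC827/GR and at 10.1 to 15.5 FPKM in HCC827, and ITGB1 stood above all other members in each of the 5 libraries.

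**Figure D2:**
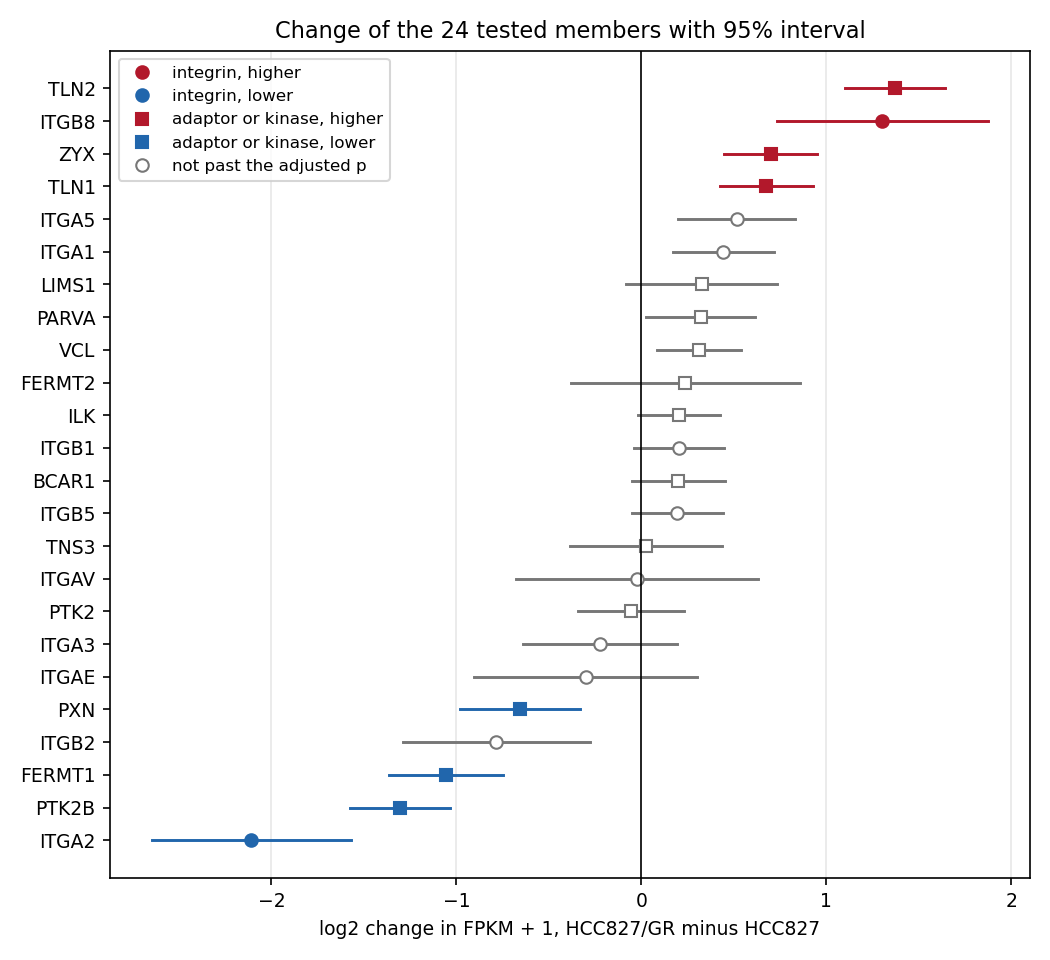
Log2 difference of FPKM + 1, HCC827/GR minus HCC827, for the 24 members tested, with the 95% interval from limma as the horizontal bar colour for the call, and circles for integrins and squares for adaptors or kinases. The differences run from -2.11 for ITGA2 to 1.37 for TLN2, with 4 members called higher and 4 lower.

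The collagen-binding alpha subunits pair with beta1, and ITGA2 moved furthest of all 24 members. ITGA2, the alpha2 subunit of the epithelial and platelet collagen receptor, stood at 2.26, 2.42 and 1.79 FPKM in HCC827/GR replicates 1, 2 and 3 and at 15.5 and 10.1 FPKM in HCC827 replicates 2 and 3. Every resistant library was below both parental ones, although the parental ones also differed from each other. The means were 2.16 ± 0.326 FPKM (SD, n = 3) and 12.8 ± 3.8 FPKM (SD, n = 2), a ratio of 0.168, and the log2 difference was -2.11 (SE 0.21, limma adjusted p = 0.0100). It ran from -2.39 to -1.82 when 1 library was left out, with an adjusted p of 0.0271 to 0.0491.

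ITGA1, the alpha1 subunit of the collagen receptor of mesenchymal cells, lies next to ITGA2. In GRCh38, ITGA1 spans chromosome 5 from 52787896 to 52959210 and ITGA2 from 52989326 to 53094779, both on the plus strand and 30116 bases apart. ITGA1 had 1.73, 1.83 and 1.96 FPKM in HCC827/GR and 1.17 and 1.01 FPKM in HCC827, in an entry that also holds PELO, a gene within it. The resistant libraries were all above the parental ones, the opposite order from ITGA2, but the log2 difference of 0.44 (SE 0.10) missed the threshold (limma adjusted p = 0.0657). ITGA10, a chondrocyte collagen receptor subunit, and ITGA11, a fibroblast one, stayed at or under 0.145 FPKM in all libraries.

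The promoters of these neighbours are shown because their genes stood in opposite order, and the letters are those of RefSeq in GRCh38.p14, from 250 to 51 bases before the start of each gene. Motifs searched on both strands were CAGGTG (an E-box bound by ZEB and SNAI factors, in 14.9% of 35116 such windows), GGGCGG (the GC box bound by SP factors, in 35.0%), TGANTCA (AP-1, in 5.27%) and GGAATG (TEAD, in 9.71%). Capitals mark every match, on either strand. A match is a description of letters only. The ITGA1 window, chr5:52787666-52787865 on the plus strand, held no match at 61.0% GC, and the ITGA2 window, chr5:52989102-52989301 on the plus strand, held 3 GC boxes at 78.5% GC, where the median window of all promoters had 57.5% GC.
ITGA1: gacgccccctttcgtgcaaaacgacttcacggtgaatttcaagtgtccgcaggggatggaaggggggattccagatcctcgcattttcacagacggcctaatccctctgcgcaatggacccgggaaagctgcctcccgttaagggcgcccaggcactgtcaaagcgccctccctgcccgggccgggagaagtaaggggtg
ITGA2: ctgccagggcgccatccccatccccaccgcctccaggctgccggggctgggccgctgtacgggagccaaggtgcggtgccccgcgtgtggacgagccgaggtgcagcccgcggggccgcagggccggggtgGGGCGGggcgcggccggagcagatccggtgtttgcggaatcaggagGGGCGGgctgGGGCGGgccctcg

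Among laminin-binding alpha subunits, ITGA3 was high in both groups. ITGA3, the alpha3 subunit that holds lung epithelium to laminin, had 58.4, 58.7 and 74.2 FPKM in HCC827/GR and 67.8 and 81.2 FPKM in HCC827. These ranges overlapped, and the log2 difference was -0.22, with a 95% interval of -0.64 to 0.19 (limma adjusted p = 0.436). ITGA7, the laminin receptor subunit of muscle, was under the filter at 0.112, 0.0354 and 0.265 FPKM against 0.661 and 1.20 FPKM, in an entry that holds no annotated transcript. Its entry with annotated transcripts had 0.283, 0.259 and 0.241 FPKM against 0.397 and 0.690 FPKM, the same order of groups.

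The alpha subunits that recognise the RGD motif of fibronectin and vitronectin gave 1 overlapping and 1 separated pair of groups. ITGA5, the fibronectin receptor subunit, had 32.2, 31.7 and 28.8 FPKM in HCC827/GR and 19.4 and 23.4 FPKM in HCC827. Every resistant library was above both parental ones, but the log2 difference of 0.51 (SE 0.12) did not pass (limma adjusted p = 0.0663). ITGAV, the alphaV subunit shared by several receptors, had 52.6, 30.5 and 37.0 FPKM against 42.8 and 36.8 FPKM. HCC827/GR replicate 1 was above both parental libraries, replicate 2 below both and replicate 3 between them, and the log2 difference was -0.02 with a 95% interval of -0.68 to 0.63 (limma adjusted p = 0.964).

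ITGA4, whose product binds VCAM1, had 0.0196 FPKM in HCC827/GR replicate 1, was listed at 0 in replicates 2 and 3, and had 0.0188 and 0.0317 FPKM in HCC827. ITGA9, a tenascin receptor subunit, was at most 0.0211 FPKM, and no difference was tested for either. Of the alpha subunits known from leukocytes, ITGAE, which binds E-cadherin, had 5.49, 6.90 and 6.83 FPKM in HCC827/GR and 6.22 and 10.4 FPKM in HCC827. That entry held no annotated transcript, its groups overlapped, and its log2 difference was -0.30 (limma adjusted p = 0.471). The ITGAE entry with annotated transcripts, added after the values were seen, had 2.84, 2.19 and 3.04 FPKM against 1.92 and 1.95 FPKM, a log2 difference of 0.32 (limma adjusted p = 0.214), so that the direction turned with the entry. ITGAM and ITGAX, subunits of complement receptors whose genes lie 22242 bases apart, stayed at or under 0.270 FPKM.

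Among beta subunits, the most abundant did not pass and ITGB8 was higher in HCC827/GR. ITGB1, the beta1 subunit that pairs with most alpha subunits, had 124.7, 120.8 and 131.1 FPKM in HCC827/GR and 106.2 and 111.6 FPKM in HCC827. The groups did not overlap, with a log2 difference of 0.20 and a 95% interval of -0.04 to 0.45 (limma adjusted p = 0.249). ITGB5, which pairs with alphaV to bind vitronectin, had 15.1, 15.6 and 14.7 FPKM against 13.9 and 12.4 FPKM, a log2 difference of 0.19 (limma adjusted p = 0.274).

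ITGB8 encodes the beta8 subunit, which pairs only with alphaV and releases active TGF-beta from its latent complex. Its levels were 14.3, 20.0 and 12.3 FPKM in HCC827/GR and 5.94 and 5.24 FPKM in HCC827, with every resistant library above both parental ones and the widest spread among the resistant ones. The means of 15.5 ± 3.99 FPKM (SD, n = 3) and 5.59 ± 0.495 FPKM (SD, n = 2) gave a ratio of 2.78, and the log2 difference was 1.30 (SE 0.22, limma adjusted p = 0.0309). The adjusted p rose to 0.0933 without HCC827/GR replicate 1, 0.13 without HCC827 replicate 2 and 0.142 without HCC827 replicate 3, and to 0.0722 with no filter on low values. ITGB8 spans chromosome 7 from 20330702 to 20415754 on the plus strand.

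The leukocyte beta subunits were low. ITGB2, the beta2 subunit of leukocyte integrins, had 0.988, 0.595 and 1.37 FPKM in HCC827/GR and 2.45 and 2.30 FPKM in HCC827. The groups did not overlap, and the log2 difference was -0.78 (SE 0.19, limma adjusted p = 0.0739). Another entry under the ITGB2 symbol, with no annotated transcript, had 0.339, 0.0515 and 0.30 FPKM against 2.51 and 1.89 FPKM (limma adjusted p = 0.0168). With all entries of a symbol summed, the log2 difference was -1.43 (limma adjusted p = 0.0418). Apart from the first entry, those in the ITGB2 sum hold no annotated transcript. ITGB7, the partner of alpha4 and alphaE in lymphocytes, was at most 0.264 FPKM. Of the 4 leukocyte markers listed, 2 were lower in HCC827/GR and 2 had overlapping groups. CD79A had 0.147, 0.0245 and 0.0573 FPKM in HCC827/GR and 1.08 and 1.03 FPKM in HCC827. CD14 had 0.164, 0.0391 and 0.0572 FPKM against 0.267 and 0.266 FPKM. PTPRC was at most 0.0228 FPKM in any library, with overlapping groups. The part of these markers in the difference of ITGB2 was not tested.

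As a share of the summed FPKM of ITGB1, ITGB5 and ITGB8, the subunits listed here that pair with alphaV, ITGB8 made up 9.30%, 12.8% and 7.77% in HCC827/GR and 4.71% and 4.05% in HCC827. The means were 9.95% ± 2.57 (SD, n = 3) and 4.38% ± 0.466 (SD, n = 2), and the exact permutation test over libraries (two-sided) gave p = 0.1, the smallest that 3 against 2 libraries allow. ITGB1 made up 80.9%, 77.2% and 83.0% against 84.3% and 86.4% (exact permutation p = 0.2). The shares of ITGB5 overlapped, at 9.28% to 9.98% in HCC827/GR and 9.58% to 11.0% in HCC827. The joined entries of ITGB3 and ITGB6 were not in this sum, which was 154 to 158 FPKM in HCC827/GR and 126 to 129 FPKM in HCC827.

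Among the alpha subunits that pair with beta1, ITGA2 made up 8.31% and 5.17% of the summed FPKM in HCC827 and 1.32%, 1.61% and 1.03% in HCC827/GR, and ITGA5 stood at 10.4% and 11.9% in HCC827 and at 18.9%, 21.1% and 16.6% in HCC827/GR. For both, no library of a group reached the range of the other. ITGA6, a laminin receptor subunit outside the 39 genes that was included in the sum, made up 13.6%, 16.5% and 17.0% in HCC827/GR and 21.0% and 21.5% in HCC827. The largest share belonged to ITGA3, at 34.2% to 42.8% and 36.3% to 41.4%, which overlapped, as did that of ITGAV at 20.3% to 30.8% and 18.7% to 22.9%. Over the 14 shares, 10 had groups that did not overlap. They include ITGA7, ITGA9, ITGA10 and ITGA11, which were under the filter and made up at most 0.614% in any library. Among all single entries tested, 46.3% had groups that did not overlap, and no such figure was computed for shares. The smallest exact permutation p adjusted over the 14 shares was 0.175, so that none could pass.

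**Figure D3:**
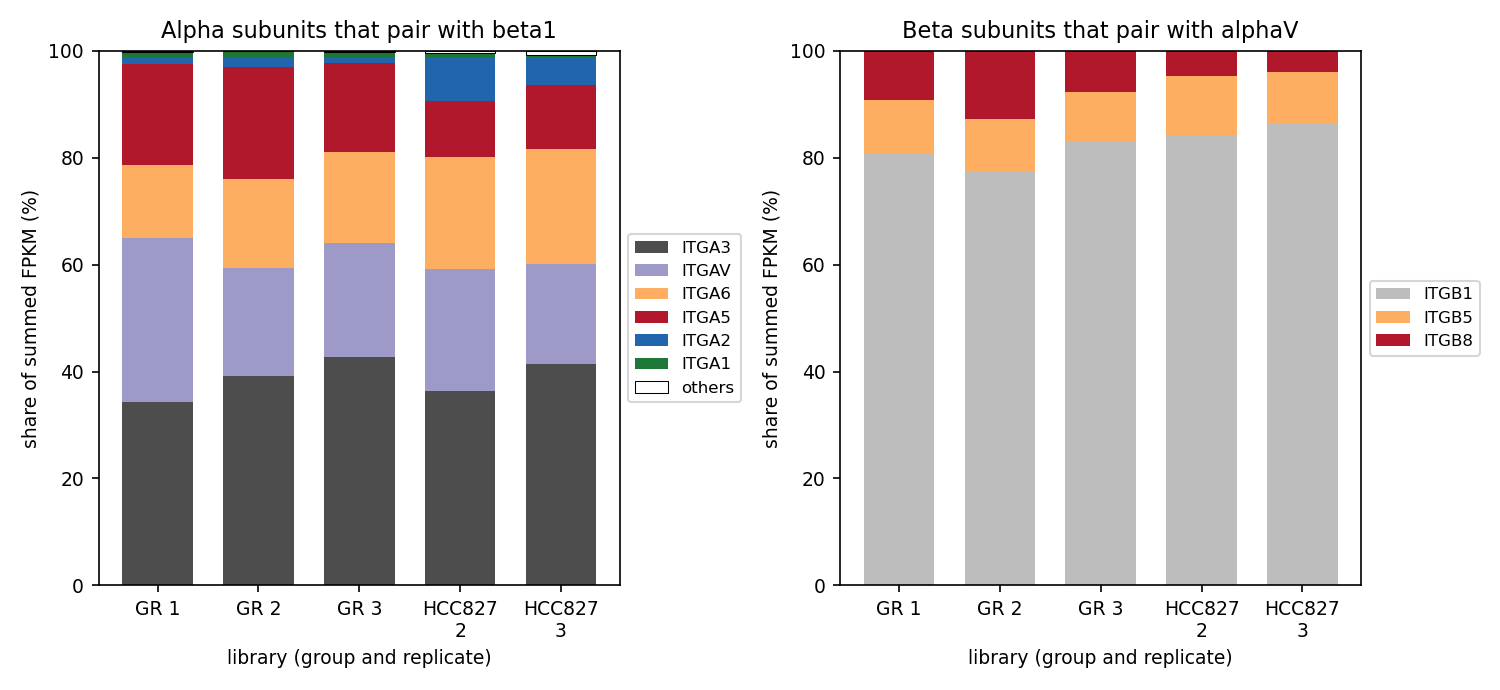
Shares in percent of the summed FPKM of beta subunits that pair with alphaV and of alpha subunits that pair with beta1, as stacked bars for each of the 5 libraries (GR for HCC827/GR). ITGB8 takes 7.77% to 12.8% in HCC827/GR and 4.05% to 4.71% in HCC827, and ITGA2 takes 1.03% to 1.61% and 5.17% to 8.31%.

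Talins and kindlins, which activate integrins, gave 3 of the 8 calls. TLN1 encodes the talin found in most cells, and had 24.2, 25.3 and 22.3 FPKM in HCC827/GR and 14.8 and 14.3 FPKM in HCC827. All resistant libraries were above the parental ones, with means of 23.9 ± 1.52 FPKM (SD, n = 3) and 14.6 ± 0.310 FPKM (SD, n = 2) and a log2 difference of 0.68 (SE 0.096, limma adjusted p = 0.0207). The adjusted p was 0.0806 and 0.0675 without HCC827/GR replicates 1 and 2, and 0.0837 and 0.0848 without HCC827 replicates 2 and 3. TLN1 spans chromosome 9 from 35696948 to 35732395 on the minus strand.

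TLN2, the talin of heart, brain and muscle, had 7.32, 6.58 and 6.71 FPKM in HCC827/GR and 1.86 and 2.23 FPKM in HCC827. The spread within each group was small beside the gap between them, with means of 6.87 ± 0.391 FPKM (SD, n = 3) and 2.04 ± 0.256 FPKM (SD, n = 2), a ratio of 3.36. The log2 difference was 1.37 (SE 0.10, limma adjusted p = 0.00558), the lowest adjusted p among the members, and it stayed at 0.0283 to 0.0371 without any 1 library. TLN2 spans chromosome 15 from 62390526 to 62844631 on the plus strand. Its promoter window is shown because TLN2 had the largest positive log2 difference of the members. It covers chr15:62390300-62390499 on the plus strand in GRCh38.p14, at 74.5% GC, and held none of the 4 motifs.
TLN2: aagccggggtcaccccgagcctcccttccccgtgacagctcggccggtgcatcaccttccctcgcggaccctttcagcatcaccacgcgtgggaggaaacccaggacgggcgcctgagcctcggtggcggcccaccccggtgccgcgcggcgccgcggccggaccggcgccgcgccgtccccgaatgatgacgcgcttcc

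FERMT1, kindlin-1 of epithelia, had 7.10, 6.94 and 8.54 FPKM in HCC827/GR and 17.1 and 16.3 FPKM in HCC827. The resistant libraries were all below the parental ones, with means of 7.53 ± 0.879 FPKM (SD, n = 3) and 16.7 ± 0.534 FPKM (SD, n = 2), a ratio of 0.451 and a log2 difference of -1.06 (SE 0.12, limma adjusted p = 0.0122). The adjusted p rose to 0.0554 without HCC827/GR replicate 1 and to 0.0769 and 0.0645 without HCC827 replicates 2 and 3. The summed epithelial markers were also lower in all resistant libraries, and their part in the difference of FERMT1 was not tested. FERMT1 spans chromosome 20 from 6074845 to 6123544 on the minus strand. FERMT2, kindlin-2 of most other tissues, had 8.41, 5.39 and 5.56 FPKM against 6.22 and 4.36 FPKM, which overlapped, with a log2 difference of 0.24 and a 95% interval of -0.38 to 0.86 (limma adjusted p = 0.585). VCL, vinculin, which links talin to actin, had 49.3, 51.8 and 52.4 FPKM against 40.0 and 42.0 FPKM. Its groups did not overlap, but its log2 difference of 0.31 did not pass (limma adjusted p = 0.0991).

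None of the 3 genes tested for the ILK, PINCH and parvin complex, which couples beta subunits to actin, passed. ILK, the pseudokinase at its centre, had 19.6, 19.1 and 18.7 FPKM in HCC827/GR and 16.9 and 16.0 FPKM in HCC827, a log2 difference of 0.20 (limma adjusted p = 0.214). PARVA, a parvin that binds ILK, had 7.95 to 9.81 FPKM against 6.90 to 6.97 FPKM, and LIMS1, PINCH-1, had 2.19 to 3.27 FPKM against 1.78 to 2.10 FPKM. All 3 groups of resistant libraries lay above the parental ones, as in 22.8% of all entries tested, with limma adjusted p from 0.160 to 0.268. LIMS1 shares sequence with near-identical copies, so that its reads could be split among them.

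The focal adhesion kinases PTK2 and PTK2B differed in level and in call. PTK2 encodes focal adhesion kinase, which autophosphorylates at adhesions and recruits SRC. Its levels overlapped, at 4.92, 4.99 and 4.99 FPKM in HCC827/GR and 5.77 and 4.68 FPKM in HCC827, with a log2 difference of -0.06 and a 95% interval of -0.34 to 0.23 (limma adjusted p = 0.798). PTK2B encodes PYK2, its calcium-responsive relative, and had 0.555, 0.619 and 0.656 FPKM against 3.10 and 2.85 FPKM. The groups lay far apart for their spread, with means of 0.610 ± 0.0511 FPKM (SD, n = 3) and 2.98 ± 0.174 FPKM (SD, n = 2) and a ratio of 0.205. The log2 difference of -1.30 (SE 0.10, limma adjusted p = 0.00628) is on the FPKM + 1 scale, which understates the change of so low a gene, and was -2.12 with a pseudocount of 0.1. Its adjusted p was 0.0301 to 0.0403 without any 1 library.

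Paxillin and zyxin, LIM domain proteins of the adhesion plaque, moved in opposite directions. PXN, a scaffold that focal adhesion kinase and SRC phosphorylate, had 16.2, 13.5 and 14.8 FPKM in HCC827/GR and 22.1 and 25.9 FPKM in HCC827. The resistant libraries were below the parental ones, with means of 14.8 ± 1.32 FPKM (SD, n = 3) and 23.97 ± 2.71 FPKM (SD, n = 2) and a log2 difference of -0.66 (SE 0.13, limma adjusted p = 0.0407). This call was lost whichever library was left out, the adjusted p being 0.0885, 0.107 and 0.106 when HCC827/GR replicates 1, 2 and 3 were omitted and 0.0929 and 0.135 when HCC827 replicates 2 and 3 were, and 0.0717 with no filter. PXN spans chromosome 12 from 120210439 to 120265771 on the minus strand.

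The promoters of PXN are shown because it is the called member that has 2 starts in the table, and both windows are on the minus strand. The first, chr12:120265781-120265980, held 7 GC boxes and 1 E-box that overlaps the first GC box, at 80.5% GC. The second, chr12:120250214-120250413, held 1 TEAD match at 54.0% GC. The promoters of ITGB8, TLN1, FERMT1, PTK2B and ZYX are not printed here.
PXN first start: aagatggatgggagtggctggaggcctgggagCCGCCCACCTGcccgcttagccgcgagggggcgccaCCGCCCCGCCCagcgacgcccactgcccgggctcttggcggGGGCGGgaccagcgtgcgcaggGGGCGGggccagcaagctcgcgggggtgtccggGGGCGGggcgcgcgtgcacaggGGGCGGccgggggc
PXN second start: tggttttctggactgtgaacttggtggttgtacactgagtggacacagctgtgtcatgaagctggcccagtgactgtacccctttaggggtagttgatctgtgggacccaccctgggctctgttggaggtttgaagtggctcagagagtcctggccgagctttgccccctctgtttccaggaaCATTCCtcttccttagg

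ZYX, zyxin, which gathers at adhesions under tension, had 14.1, 14.4 and 13.9 FPKM in HCC827/GR and 7.75 and 8.90 FPKM in HCC827. All resistant libraries were above the parental ones, with means of 14.1 ± 0.248 FPKM (SD, n = 3) and 8.33 ± 0.810 FPKM (SD, n = 2), a log2 difference of 0.70 (SE 0.096) and a limma adjusted p of 0.0195. It rose to 0.0761, 0.0695 and 0.0581 without HCC827/GR replicates 1, 2 and 3 and to 0.0683 without HCC827 replicate 2. ZYX spans chromosome 7 from 143381080 to 143391111 on the plus strand. BCAR1, the p130Cas scaffold, had 7.61 to 8.65 FPKM against 6.77 to 6.85 FPKM in an entry that joins a neighbouring locus (limma adjusted p = 0.268), and TGFB1I1, the paxillin relative HIC-5, was at most 0.0781 FPKM.

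Tensins bind beta subunit tails, and most of them also bind actin. TNS3, the tensin of epithelial and other adherent cells, had 27.2, 22.4 and 23.5 FPKM in HCC827/GR and 27.2 and 20.9 FPKM in HCC827, which overlapped, with a log2 difference of 0.03 (limma adjusted p = 0.936). TNS1 was at most 0.0337 FPKM. TNS4, a short tensin of epithelial tumours, was at 0.00800 and 0.00380 FPKM in HCC827/GR replicates 1 and 2, listed at 0 in replicate 3, and at 0.164 and 0.169 FPKM in HCC827. These levels are under the filter, and no call was made from them.

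Ratios between paralogues, as the log2 of one level plus 1 over the other plus 1, separated the groups for all 6 pairs that could be computed of 8 planned. Among all single entries tested, 46.3% had groups that did not overlap, and no such share was computed for ratios. Ratios that hold ITGA2, FERMT1, TLN1, TLN2 or PTK2B partly restate the calls of these members. ITGA2 to ITGA1 was 0.25, 0.27 and -0.08 in HCC827/GR and 2.93 and 2.47 in HCC827. FERMT1 to FERMT2 was -0.22, 0.31 and 0.54 against 1.33 and 1.69, so that the kindlin of epithelia exceeded kindlin-2 by less in each resistant library, or was below it in replicate 1. TLN1 to TLN2 was 1.60, 1.79 and 1.59 against 2.46 and 2.25, and TLN1 was the higher talin in all 5 libraries. PTK2 to PTK2B was 1.93, 1.89 and 1.86 against 0.72 and 0.56. ITGA3 to ITGA5 was 0.84, 0.87 and 1.33 against 1.75 and 1.75. The exact permutation test over libraries gave p = 0.2 for ITGA3 to ITGA5 and p = 0.1 for the other 5, the smallest possible, and 0.12 after adjustment over the 6. TNS4 to TNS1, both under the filter, differed by -0.21, a value set by the pseudocount, since it was -1.27 with a pseudocount of 0.1. The difference in PTK2 to PTK2B was 1.25, and 2.05 with a pseudocount of 0.1.

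**Figure D4:**
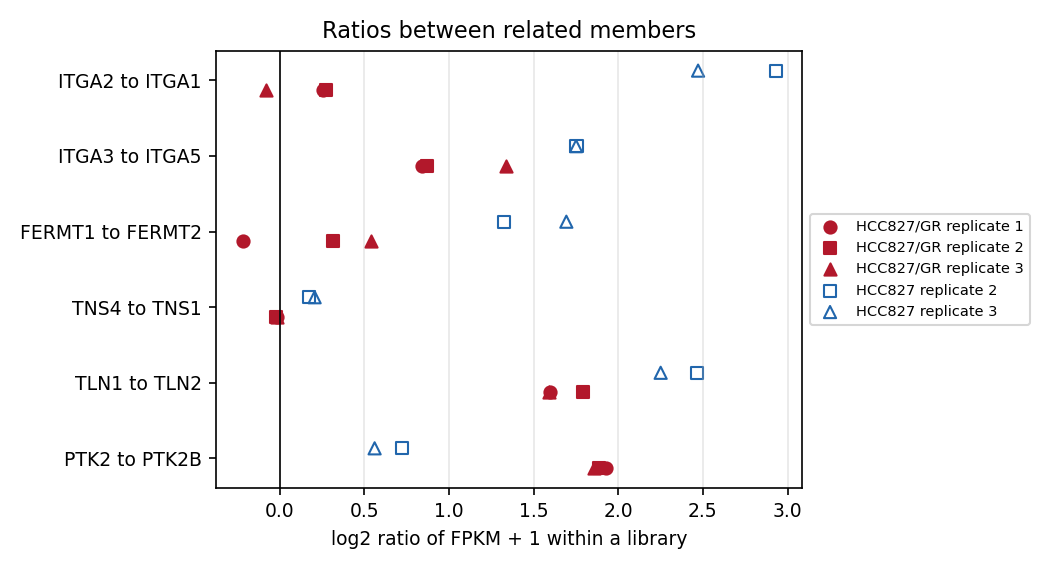
Log2 ratio of FPKM + 1 between paralogues in each library, with filled points for HCC827/GR (n = 3) and open points for HCC827 (n = 2). The groups do not overlap in any of the 6 pairs, with the widest gap for ITGA2 to ITGA1, at -0.08 to 0.27 and 2.47 to 2.93. Among all single entries tested, 46.3% had groups that did not overlap.

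The members that the assembly joined with other genes could not be given a level of their own. The entry that joins ITGB3 with EFCAB13 had 2.47, 2.45 and 2.89 FPKM in HCC827/GR and 1.61 and 1.19 FPKM in HCC827 (limma adjusted p = 0.0544). That of ITGB6 with RBMS1 had 2.64, 2.33 and 2.56 FPKM against 4.73 and 3.24 FPKM (limma adjusted p = 0.131), and that of PARVB with PARVG 0.826, 0.816 and 0.868 FPKM against 0.344 and 0.462 FPKM (limma adjusted p = 0.133). None passed. The groups did not overlap in any of the 3, which 46.3% of all entries tested also showed. The 11 members listed under the filter had mean levels of 0.00744 to 0.455 FPKM.

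The rest of the pathway was counted by list, as 90 genes of which 73 were tested, with 15 higher in HCC827/GR, 6 lower and 52 not called. That is 28.8% called against 11.0% of all entries (5.26% higher and 5.71% lower). These lists too were chosen with earlier results of these data known, so the shares are a description only. Other adhesome proteins had 6 of 30 higher, or 20.0%, and 0 lower. TRIP6, a zyxin relative, had 84.6, 81.8 and 88.9 FPKM in HCC827/GR and 41.5 and 44.5 FPKM in HCC827, a log2 difference of 0.97 (limma adjusted p = 0.00995). FLNC, the actin cross-linker filamin C, differed by 0.93 (limma adjusted p = 0.0145). KANK1 and LIMS2 differed by 0.79 each (limma adjusted p = 0.0165 and 0.0461). Both were low, so the FPKM + 1 scale understates their change, with ratios of mean FPKM of 2.84 for KANK1 and 4.59 for LIMS2. In integrin signalling, 3 of 21 were higher and 0 lower, a called share of 14.3% that lies near the 11.0% of all entries. FYN, a SRC family kinase, differed by 1.37 (limma adjusted p = 0.0147), RAPGEF1, which activates RAP1, by 1.16 (limma adjusted p = 0.0407), and PAK2, a kinase downstream of RAC, by 0.59 (limma adjusted p = 0.0246). Of the other integrin subunits, ITGA6 was lower, at 23.2, 24.9 and 29.4 FPKM against 39.2 and 42.2 FPKM (log2 difference -0.64, limma adjusted p = 0.0482), and its partner ITGB4 gave -0.13 (limma adjusted p = 0.835).

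Integrin ligands had 6 of 20 higher and 5 lower, or 55.0% called. Those called higher were THBS1, COL4A1, SPP1, COL4A2, NPNT and ICAM1. Those called lower were CDH1, FN1, LAMB3, LAMA3 and TNC. THBS1, thrombospondin-1, had 391, 267 and 425 FPKM in HCC827/GR and 33.0 and 38.6 FPKM in HCC827, a log2 difference of 3.27 (limma adjusted p = 0.00521). COL4A1, a basement membrane collagen, differed by 3.04 (limma adjusted p = 0.00157), and SPP1, osteopontin, by 2.43 (limma adjusted p = 0.0137). CDH1, E-cadherin, the ligand of alphaEbeta7 and also one of the epithelial markers above, differed by -1.93 (limma adjusted p = 0.0125). Of the 73 genes, 3 were called higher without HCC827/GR replicate 1 and 8 without HCC827/GR replicate 2 or 3, and 0 were called lower without HCC827 replicate 2.

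**Figure D5:**
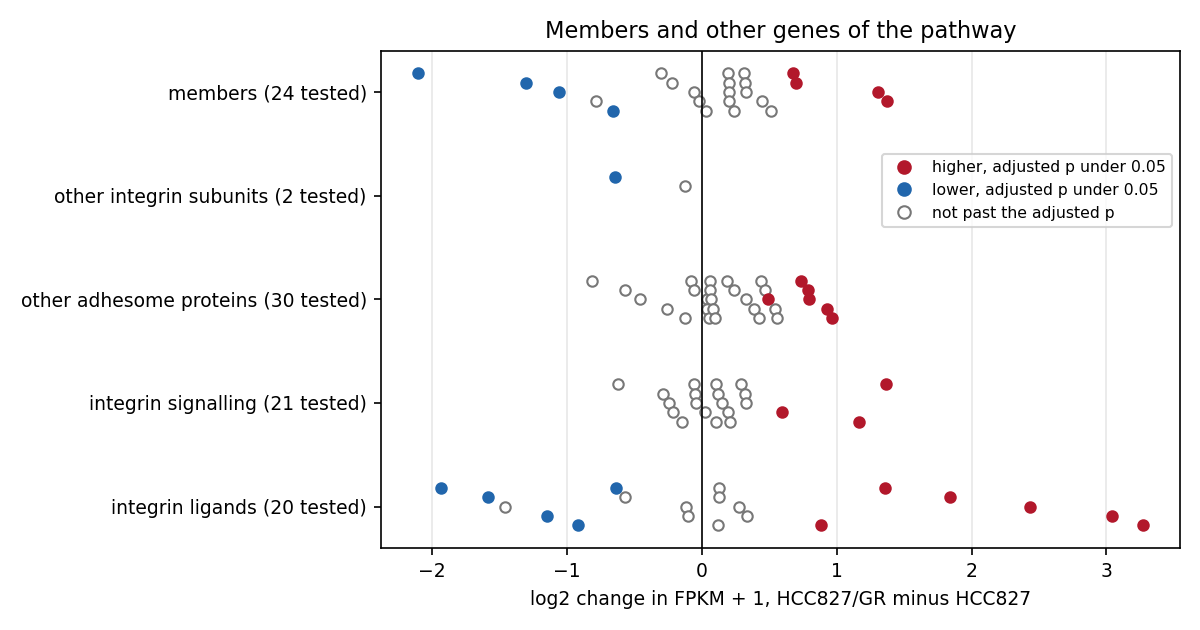
Log2 difference of FPKM + 1, HCC827/GR minus HCC827, for each tested gene of the members and of the 4 other pathway lists, with filled points for genes called by limma. Other adhesome proteins have 6 calls above 0 and none below, while integrin ligands have 6 above and 5 below.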

How the data were processed

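RNA sequencing of HCC827/GR (n = 3) and HCC827 (n = 2) was read from 1 deposited table of 37181 assembled entries. The authors trimmed reads with cutadapt, checked them with FastQC, mapped them with Bowtie2 and TopHat2, and assembled and quantified them with StringTie, which gave the deposited FPKM values. The submitters' notes name the build hg18, while gene positions here are from GENCODE 29 on GRCh38 and promoters from RefSeq on GRCh38.p14, matched by symbol. Of the 39 members, 28 had a promoter in that table, and windows overlapping an annotated exon were not printed. The labels describe a small RNA kit, and the paper a ribosomal RNA-depleted mRNA library. Because FPKM keeps no read number, depth is unknown and no counting interval can be given. Assembly can join neighbours or split a gene over entries. It split 8 members over several entries, and it joined others, ITGB3, ITGB6 and PARVB among them, with neighbouring genes. Of the FPKM columns, 1 matched no sample and was left out, and the annotation terms were not used.

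Values were taken as log2(FPKM + 1), and entries with a mean under 0.5 FPKM were removed before limma 3.58.1 (lmFit and eBayes with trend, R 4.3.3) was fitted to the remaining 16189. The script was tested on simulated data. Shares and ratios were compared by two-sided exact permutation tests (scipy 1.17.1). Members were ordered by role. Members tested are given by library where they were called, passed a fold of 2 or 0.5 in the fit or were the most abundant of their role, and in each other list the called genes with the 4 largest differences may be named. The other called integrin ligands were named after the data were seen. The members and lists were chosen with earlier results of these data known, and the ITGAE entry with annotated transcripts was added after the data were seen. Alternatives were a pseudocount of 0.1, no filter, a minimum mean of 1 FPKM, median-ratio and quantile scaling, no trend, a re-implementation of Ballgown's model, a replicate block, summed entries, the ratio of means and leaving out each library.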

Additional observations from a re-analysis of the deposited data

How the results depend on the processing

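With 3 and 2 libraries, a left-out library moved most counts. Members called higher (4) ran from 1 to 3 and members called lower (4) from 2 to 3, and other pathway genes called higher (15) from 3 to 8 and lower (6) from 0 to 5. Over all entries 202 to 485 were called higher and 287 to 477 lower in those fits, against 851 and 924 with all libraries, and with no filter 575 and 869. The re-implementation of Ballgown's model called 0 members and 0 other pathway genes in each direction, and by the study thresholds 1 member higher in place of 2. With no filter and with no trend, 3 other pathway genes were called lower.

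The 2 groups share only the replicate numbers 2 and 3, and deviations from the group mean correlated at 0.0328 and 0.0147 between same-numbered libraries. The replicate block used 2 pairs and called 0 members, 0 other pathway genes and 0 of all entries in each direction. In that fit, 11 of 24 members and 28 of 73 other genes had an unadjusted p under 0.05. The share of all entries under it was not counted, so these numbers have no background.

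Directions turned for members that were not called. ITGAV gave a log2 difference of 0.22 with Ballgown's model, 0.0083 as the ratio of means and -0.23 to 0.15 without 1 library. TNS3 gave -0.053 with the replicate block, -0.037 with entries summed and -0.16 to 0.21 without 1 library. ITGAE gave 0.32 in its annotated entry and -0.63 to 0.032 without 1 library, and PTK2 gave -0.18 to 0.070. Without 1 library, the difference in share ran from -1.31 to 0.108 percentage points for ITGB5, -2.72 to 2.40 for ITGA3 and -0.0405 to 5.41 for ITGAV. The cause was not tested.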
